A study of Arabidopsis thaliana with 8 samples.

Results

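The genes described here encode proteins of the large (60S) subunit of the cytosolic ribosome of Arabidopsis thaliana, with numbers from RPL3 to RPL15. They were taken by locus as a list of 41 genes. Of these 39 had at least 1 m6A peak, out of 14304 genes with a peak in either genotype. The list does not hold every gene of these numbers: further RPL13a copies are counted below among the further 60S genes. N6-methyladenosine (m6A) was mapped in poly(A) RNA of seedlings aged 14 days, of the wild type and of the mutant atalkbh10b-1, both in the ecotype Columbia-0. An anti-m6A antibody was used to pull down RNA fragments, which were sequenced next to untreated input. Per the labels each genotype had 2 libraries of pull-down and 2 of input, 8 in total, described as biological replicates, with nothing to say whether they were grown apart, so p-values measure only the spread between these samples. The deposited values are 1 list of peaks per genotype, with the authors' log2 enrichment of pull-down over input for each replicate.

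A ribosome joins a small subunit, which reads the messenger RNA, to a large subunit, which forms the peptide bond and passes the growing chain out through a tunnel. In plants each ribosomal protein is encoded by a small family of genes with very similar products, so a seedling draws on several copies of each. m6A is placed on messenger RNA by a writer complex and removed by demethylases of the AlkB family, one of which, ALKBH10B, is lost in the mutant. In plants the mark is found mainly near the end of the coding region and in the stretch that follows it.

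All 41 loci stood in a RefSeq gene table of the assembly TAIR10.1, which gave a symbol for 13 of them. The family of each gene is given from general knowledge of the Arabidopsis ribosome. Copies of a family can be near-identical, and how the authors assigned reads that match several copies is not given in the sources used here, so the values of single copies are uncertain to that extent. The wild-type list held 20521 peaks and the mutant list 20696 over all genes, and such values do not give library depth. Of 9 genes typical of green tissue, 9 had a peak in wild type and 8 in the mutant, while 4 floral homeotic genes had none in either list.

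Nearly all of these transcripts carried a listed peak in both genotypes. Of the 39 listed genes, 37 (94.9%) were in both lists, where 77.4% of all listed genes were. One gene was in the wild-type list alone, against 13% of all listed genes, and 1 in the mutant list alone, against 9.54%. The lists held 47 wild-type and 46 mutant peaks of these genes. Of them 45 (95.7%, exact binomial 95% interval 85.5 to 99.5, counting error only) and 43 (93.5%, 82.1 to 98.6) overlapped a peak of the other list by at least 1 base, against 69.4% and 69.3% of all peaks. With 1 list per genotype, the presence of a peak has no replicate of its own.

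The genes that were not listed in both genotypes lay in RPL12 and RPL8. RPL12 forms, with its neighbours, the base of the stalk that recruits translation factors, and none of its 3 genes had a peak shared by the genotypes. AT3G53430 was listed in wild type alone, at bases 571 to 680 of its gene model, with log2 enrichments of 0.63 in replicate 1 and 1.15 in replicate 2. AT5G60670 was listed in the mutant alone, at bases 161 to 310, with 1.03 and 1.37. All 4 values were below the medians of the shared peaks given below, and the peaks lay in different parts of the 2 models. The third RPL12 gene, AT2G37190, and the RPL8 gene AT3G51190 had no peak in either list. Transcript amounts were not examined, so a missing peak does not show a missing mark, and in seedlings fewer cells with a transcript and less of it per cell cannot be told apart.

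**Figure D1:**
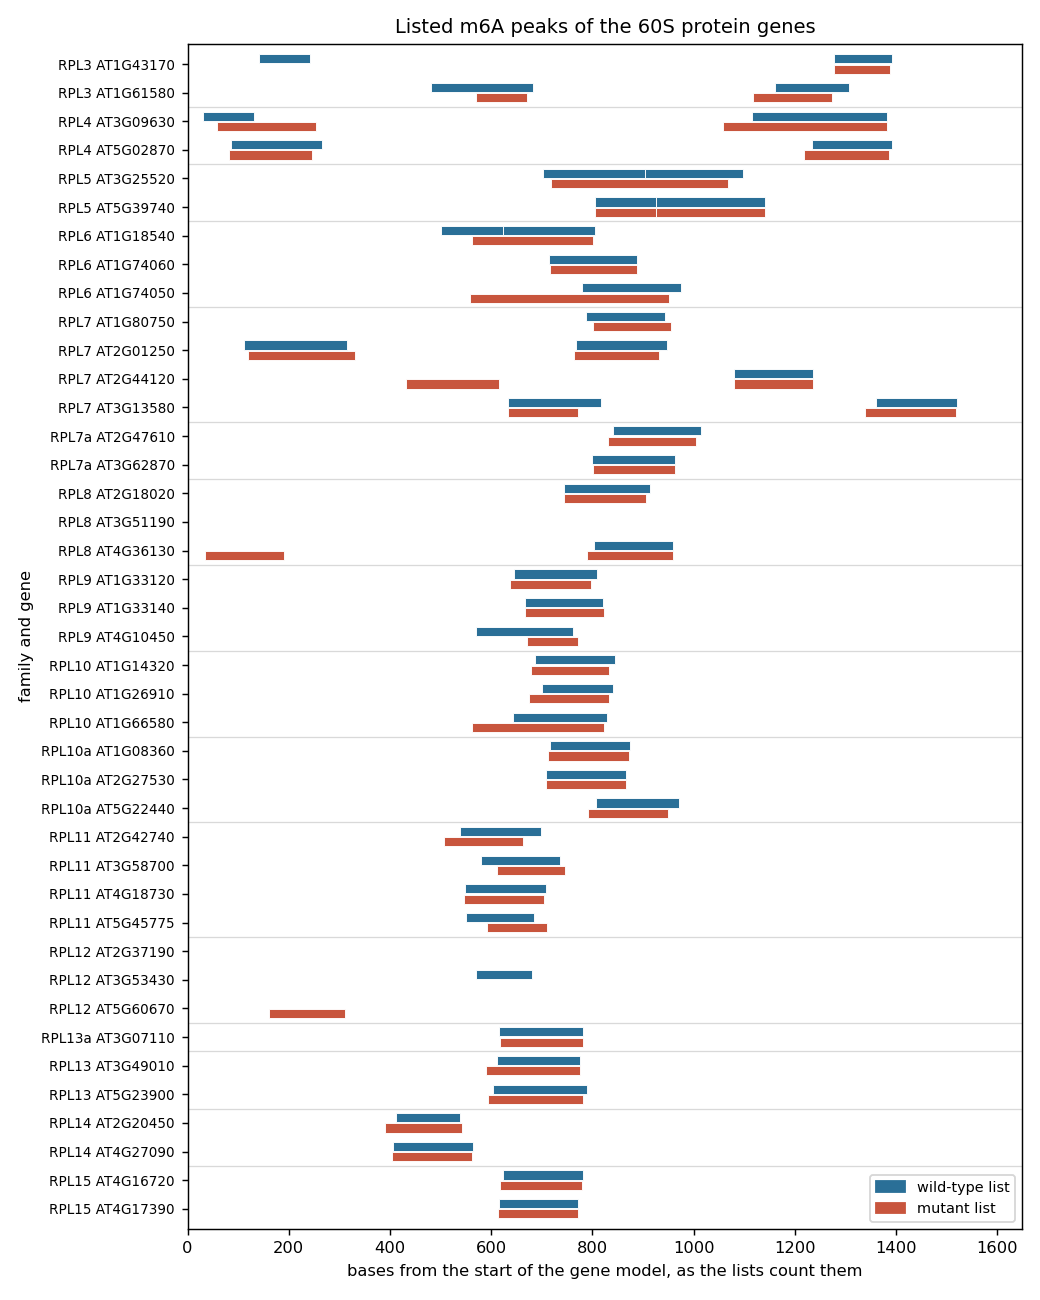
Position of each listed m6A peak of the 41 genes, in bases from the start of the gene model as the lists count them, with the wild-type list in blue and the mutant list in red and grey lines between families. Peaks of the 2 lists lie above each other in 37 genes, RPL12 has no shared peak, and copies of RPL13, RPL14 and RPL15 carry their peak at nearly the same distance from the start.

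The peaks of the 2 genotypes stood at like places, and in some families so did those of the copies. Over the 43 pairs of peaks that were each the other's largest overlap, in 37 genes, the centres differed by a median of 11 bases, against 21 bases over all 13876 such pairs. In 21 of the 43 (48.8%, against 30.03% of all pairs) they differed by at most 10 bases. The borders coincided exactly in 3 pairs, both pairs of the RPL5 gene AT5G39740 (RPL5B) and the RPL7 gene AT2G44120. The median width was 159 bases for wild-type peaks and 159.5 for mutant peaks. Whether introns count in these positions is not given in the sources used here.

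Between copies, the centre of the most enriched wild-type pair ranged over only 3.5 bases in the RPL13 genes AT3G49010 (BBC1) and AT5G23900, 8.5 bases in the RPL15 genes and 11 bases in the RPL14 genes. In the 4 RPL11 genes the range was 40 bases and in the 3 RPL10 genes 34.5 bases. At the mutant peaks of these pairs the ranges were 94 bases in RPL11 and 62.5 in RPL10. In RPL13, RPL15 and RPL14 they were 5, 6 and 16.5 bases. Of the 14 families with at least 2 genes that had a pair, 6 had a wild-type range of 50 bases or less. The median range was 58.8 bases in wild type and 72 in the mutant. The wild-type centres of all 37 genes spread over 966.5 bases. The other 8 families had wider wild-type ranges, among them RPL10a with 102.5 bases, RPL6 with 163, RPL5 with 229.5, RPL7 with 583.5 and RPL3 with 753.5. The RPL5 range depends on the pairing. The more enriched wild-type peak of AT3G25520, at bases 905 to 1096, was in no pair. It lay near the most enriched peak of RPL5B, at bases 926 to 1140. In RPL3 the most enriched pair was the downstream one in AT1G43170 and the upstream one in AT1G61580 (RPL3B). No test was made of these distances, and gene models of like length would place them alike.

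Enrichment was moderate and even. At the 43 pairs the median of the genotype means was a log2 enrichment of 2.81 for wild type and 2.49 for the mutant, against 2.62 and 2.57 over all pairs. In 37 of the 43 pairs (86.0%, against 57.8% of all pairs) all 4 libraries reached a log2 enrichment of 1. Of the 172 single values, 3 lay below 0 and 4 above 5.

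**Figure D2:**
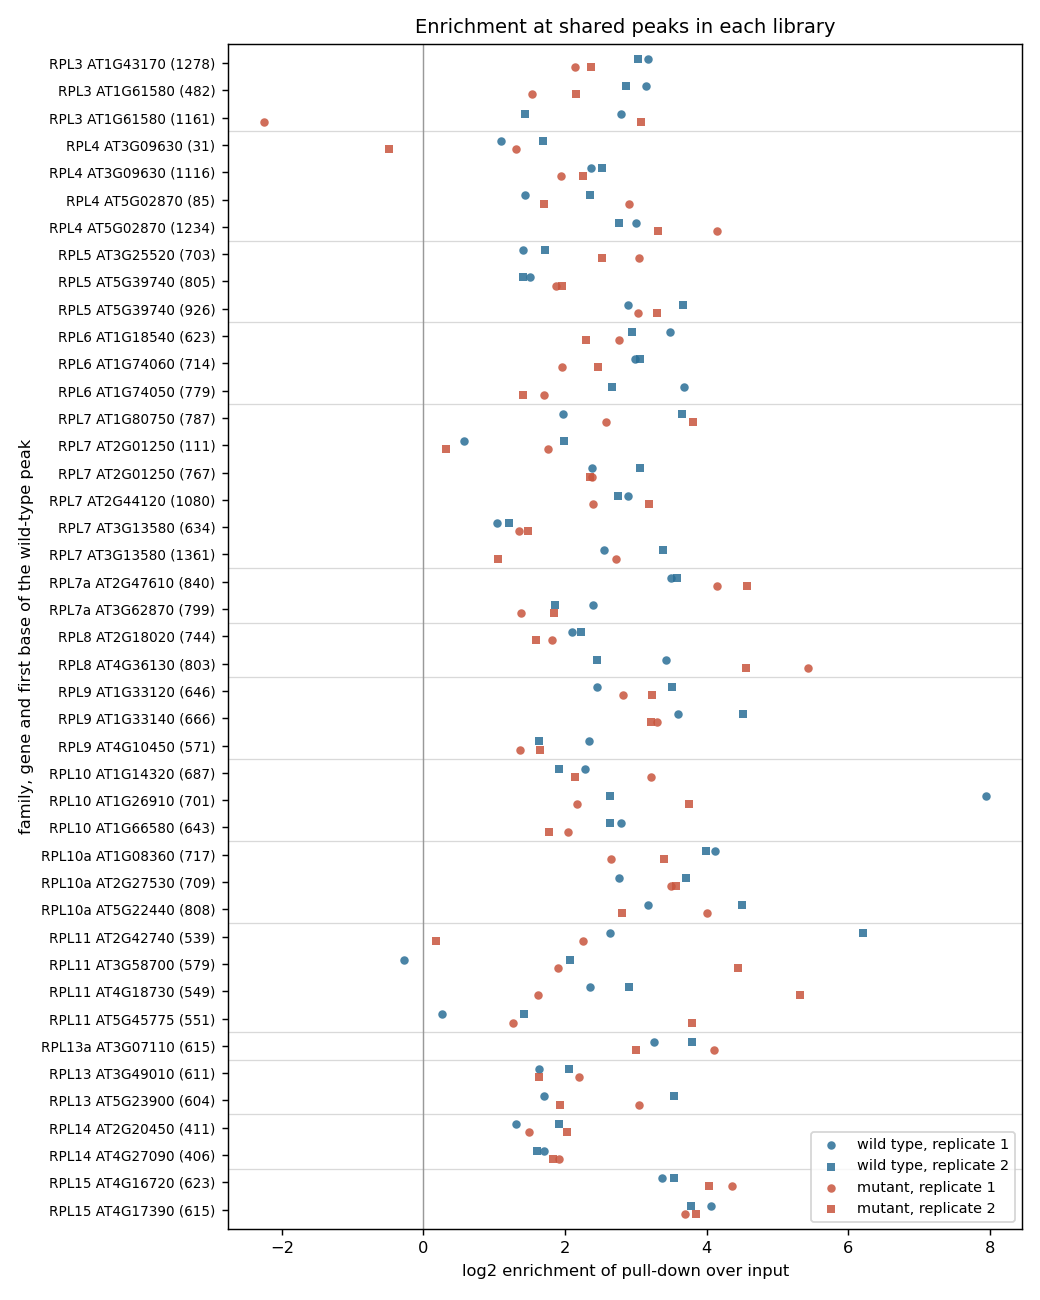
Log2 enrichment of pull-down over input (horizontal axis) in each of the 4 pull-down libraries at the 43 shared peaks, ordered by family, with wild type in blue, the mutant in red, circles for replicate 1 and squares for replicate 2. Most rows are narrow; the widest are the 4 RPL11 genes, RPL10B (AT1G26910), with 1 wild-type value of 7.95, and the downstream peak of RPL3B (AT1G61580), with 1 mutant value of -2.25.

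A mutant mean at least 1.5-fold higher than that of wild type was found at 8 of the 43 pairs (18.6%, against 32.4% of all pairs), and one at least 1.5-fold lower at 13 (30.2%, against 32.1%). The other 22 (51.2%, against 35.4%) lay closer together. Both mutant values stood above both wild-type values, at that ratio, in 5 pairs (11.6%, against 12.6% of all pairs), and below both in 9 (20.9%, against 13.6%). Without regard to the ratio, these counts were 8 (against 13.7% of all pairs) and 12 (against 15%). The median log2 difference, mutant minus wild type, was -0.13, against -0.02 over all pairs, and without the second wild-type replicate it was 0.24. No pair passed with limma's moderated test on the 4 values, with Benjamini-Hochberg adjustment over all 13876 pairs: 0 of these 43 and 0 of all (0% of all pairs) had an adjusted p under 0.05, the smallest being 0.999643. At an unadjusted p under 0.05 stood 0 of the 43 and 491 of all pairs (3.54%). With 2 values against 2, the smallest two-sided p of an exact permutation test is 0.333, so no single pair can pass that test.

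**Figure D3:**
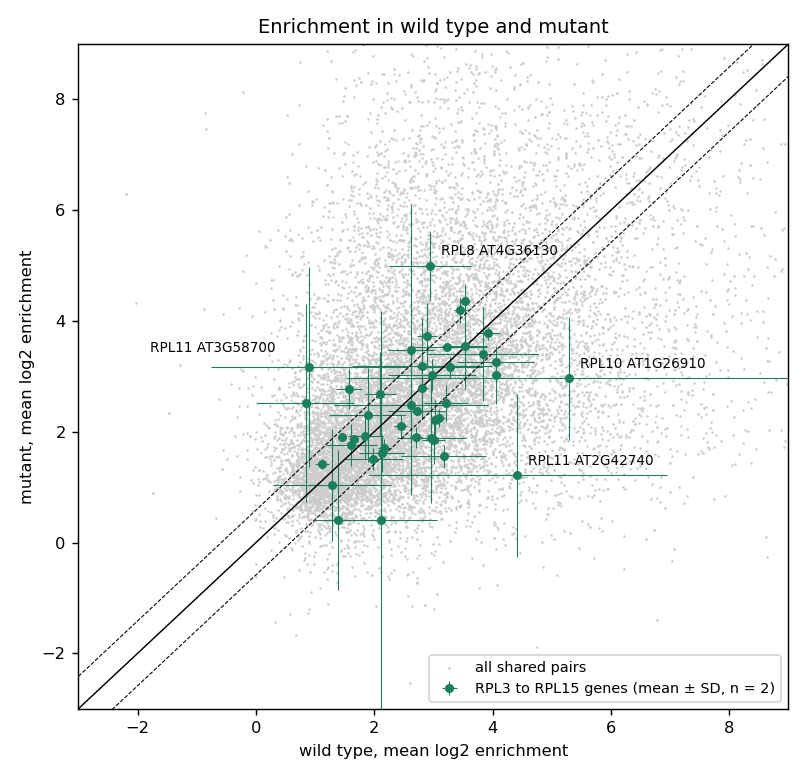
Mean log2 enrichment in wild type (horizontal axis) and in the mutant (vertical axis) at the 43 shared peaks (green, mean ± SD, n = 2) over all shared pairs (grey), with the line of equal values and dashed lines at a ratio of 1.5; pairs and bars beyond the axes are not drawn. The green points lie on both sides of the line, 22 of 43 between the dashed lines. The RPL8 gene AT4G36130 and the RPL11 gene AT3G58700 lie far above it. The RPL11 gene AT2G42740 and the RPL10 gene AT1G26910 lie far below.

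The proteins at the catalytic core are given first. RPL3 reaches towards the centre where the peptide bond is made, and its 2 genes had lower mutant means at all 3 shared peaks. AT1G43170 (RP1), at bases 1278 to 1392, had 3.17 and 3.03 in wild type and 2.14 and 2.37 in the mutant, a log2 difference of -0.85 with a standard error of 0.88 and an unadjusted limma p of 0.389. RPL3B (AT1G61580) had 3.15 and 2.87 against 1.54 and 2.16 at bases 482 to 681. At both of these peaks the genotypes did not overlap. The downstream peak of RPL3B did not show this: it had 2.79 and 1.43 against -2.25 and 3.08, and without the first mutant replicate its log2 difference turned from -1.70 to 0.97.

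RPL8 binds at the same centre and at the bridges to the small subunit. Of its 2 listed genes, AT4G36130 had the largest difference among the 5 pairs of these genes at least 1.5-fold higher in the mutant without overlap, with 3.43 and 2.45 in wild type and 5.43 and 4.56 in the mutant at bases 803 to 959. Its log2 difference was 2.05, with a standard error of 0.99 and an unadjusted limma p of 0.104. In the mutant list the same gene had a further peak at bases 34 to 190, with 1.48 and 0.59, which had no partner. The other gene, AT2G18020 (EMB2296), whose loss is known to arrest embryos, had 2.09 and 2.23 against 1.82 and 1.59, a difference under 1.5-fold.

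RPL10 is added late, in the cytoplasm, and makes the subunit able to join its partner. Its 3 genes had values on all sides. AT1G14320 (SAC52), the copy named for a suppressor of a stem-growth mutant, had 2.29 and 1.92 in wild type and 3.22 and 2.14 in the mutant, which overlapped. RPL10B (AT1G26910) had the highest mean of all 43 pairs, but its wild-type values were 7.95 and 2.63 beside 2.18 and 3.75 in the mutant. The high mean rests on 1 library: without the first wild-type replicate the log2 difference turned from -2.33 to 0.33. The third copy, AT1G66580 (SAG24), had close replicates and no overlap, with 2.79 and 2.64 against 2.04 and 1.77.

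RPL4 lines the tunnel through which the new chain leaves. Each of its 2 genes had a peak near the start of the model and another far downstream, and the differences at the downstream peaks had opposite signs. AT5G02870 had 3.01 and 2.77 in wild type and 4.15 and 3.32 in the mutant at bases 1234 to 1392, with no overlap. AT3G09630 had 2.37 and 2.52 against 1.95 and 2.25 at bases 1116 to 1381, also without overlap but less than 1.5-fold apart. The upstream peaks were lower and less repeatable, with 1.10 and 1.69 against 1.30 and -0.48 in AT3G09630 and 1.43 and 2.35 against 2.91 and 1.71 in AT5G02870.

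RPL5 and RPL11 hold the 5S ribosomal RNA. Replicates lay closer together in RPL5, with median differences of 0.31 (wild type) and 0.27 (mutant) on the log2 scale, than in RPL11. In RPL5B (AT5G39740), known as OLI7 from a mutant with few leaf cells, the lists gave 2 abutting peaks with the same borders in both genotypes. The peak at bases 805 to 925 had 1.51 and 1.41 in wild type and 1.87 and 1.95 in the mutant, and that at bases 926 to 1140 had 2.88 and 3.67 against 3.03 and 3.30. The first had no overlap between genotypes and the second did overlap, and both were under 1.5-fold apart.

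The other RPL5 gene, AT3G25520 (ATL5, also OLI5 and PGY3), was split in 1 list only. Wild type had peaks at bases 703 to 904, with 1.41 and 1.72, and 905 to 1096, with 2.53 and 3.87, while the mutant had a single peak at bases 719 to 1068, with 3.04 and 2.52. By largest overlap the mutant peak was paired with the first wild-type peak, and the mutant values were then higher by a log2 difference of 1.21. With the wild-type peaks averaged, a comparison added after the data were seen, the difference was 0.39, under 1.5-fold.

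The 4 RPL11 genes spanned 3.52 to 6.03 on the log2 scale over the 4 libraries. AT2G42740, which carries the older symbol RPL16A in the gene table, had 2.63 and 6.21 in wild type and 2.25 and 0.17 in the mutant, the largest log2 difference of the 43 pairs at -3.21, with a standard error of 1.68 and an unadjusted limma p of 0.126. Its genotypes did not overlap, but each spread widely. The difference was -1.42 without the second wild-type replicate and -4.99 without the first. The other 3 had higher mutant means with overlap: AT3G58700 had -0.28 and 2.08 against 1.90 and 4.44, AT5G45775 had 0.26 and 1.42 against 1.26 and 3.79, and RPL16B (AT4G18730) had 2.35 and 2.90 against 1.63 and 5.33. In each of these 3 the second mutant replicate was the highest of the 4 libraries. The median difference between replicates over RPL11 was 1.76 on the log2 scale in wild type and 2.53 in the mutant.

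RPL10a builds the mobile stalk beside which spent transfer RNA leaves. Its 3 genes were all well enriched, with wild-type means between 3.24 and 4.06. AT1G08360 had 4.12 and 4.00 in wild type and 2.66 and 3.40 in the mutant, with no overlap. AT2G27530 (PGY1), known as PIGGYBACK1 from an effect on leaf polarity, had 2.76 and 3.71 against 3.50 and 3.57, and AT5G22440 had 3.17 and 4.50 against 4.00 and 2.81. Both of the latter overlapped and lay within 1.5-fold.

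RPL9 lies near the base of the factor-binding stalk. Its copy AT1G33140 (PGY2, PIGGYBACK2) had 3.60 and 4.52 in wild type and 3.30 and 3.21 in the mutant, with no overlap. The copy AT1G33120, which neighbours it on the chromosome with 0 protein-coding genes between, had 2.45 and 3.51 against 2.83 and 3.23, with overlap and nearly equal means of 2.98 and 3.03. AT4G10450 was lower in both genotypes, with means of 1.99 ± 0.50 (SD, n = 2) and 1.51 ± 0.20.

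Among the proteins that bind ribosomal RNA away from the centre, all 3 RPL6 pairs had lower mutant values without overlap. AT1G74060 had 2.99 and 3.05 in wild type and 1.95 and 2.46 in the mutant. Its neighbour AT1G74050 had 3.68 and 2.66 against 1.71 and 1.40, a log2 difference of -1.62 with a standard error of 0.95 and an unadjusted limma p of 0.162. The peak of AT1G74050 was also of unequal width, at bases 779 to 974 (wild type) and 559 to 951 (mutant), which at 393 bases was the widest of all peaks of these genes. AT1G18540 had 3.48 and 2.94 against 2.76 and 2.29. In it the wild-type list split the region, with a further peak at bases 500 to 622 (2.18 and 1.81), and with the 2 averaged the log2 difference shrank from -0.69 to -0.08.

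Most pairs of the 4 RPL7 genes lay within 1.5-fold between genotypes. AT1G80750 had the highest mean of the family, with 1.98 and 3.65 in wild type and 2.58 and 3.81 in the mutant. AT2G44120 had 2.88 and 2.75 against 2.40 and 3.19, and AT2G01250 had 2.38 and 3.07 against 2.38 and 2.36 at its downstream peak. All 3 overlapped between genotypes. AT3G13580 had a low and very even upstream peak, with 1.04 and 1.20 against 1.35 and 1.48, and a downstream peak with 2.55 and 3.38 against 2.71 and 1.05. The latter, at a log2 difference of -1.08, was the only RPL7 pair past 1.5-fold, and its genotypes overlapped.

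RPL7a, a different protein, had its higher values in AT2G47610, with 3.49 and 3.58 in wild type and 4.15 and 4.57 in the mutant. This pair did not overlap, and its log2 difference of 0.83 had a standard error of 0.89. The other copy, AT3G62870, had 2.40 and 1.86 against 1.38 and 1.85, in the opposite direction and under 1.5-fold.

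In the RPL13, RPL14 and RPL15 genes and the single RPL13a gene of the list, the genotype means lay close together, except at 1 RPL15 copy. Further RPL13a copies, outside this list, are given below. RPL15 sits deep in the subunit, and its copy AT4G17390 had 4.07 and 3.78 in wild type and 3.70 and 3.86 in the mutant, a span of 0.37 over the 4 libraries at a high enrichment. The copy AT4G16720 had 3.38 and 3.53 against 4.36 and 4.03, without overlap. The RPL14 gene AT4G27090 had the smallest span of all 43 pairs, 0.31, with 1.70 and 1.60 against 1.91 and 1.83. The other RPL14 gene, AT2G20450, had 1.31 and 1.91 against 1.49 and 2.03.

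Of the RPL13 genes, BBC1 (AT3G49010) had 1.64 and 2.05 in wild type and 2.20 and 1.63 in the mutant, and AT5G23900 had 1.70 and 3.55 against 3.05 and 1.93. The single RPL13a gene of the list, AT3G07110, had 3.26 and 3.80 against 4.11 and 3.001. In these 3 the genotypes overlapped, and the log2 differences ran from -0.13 to 0.07.

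By family, RPL5, RPL7a, RPL8 and RPL15 had pairs at least 1.5-fold higher in the mutant and none lower, RPL3, RPL6, RPL7, RPL9, RPL10 and RPL10a had pairs lower and none higher, and RPL4 and RPL11 had both. RPL13, RPL14 and the single RPL13a gene of the list had neither, and RPL12 had no pair. Of these 21 pairs, 7 overlapped between genotypes: the upstream pair of AT3G09630 (RPL4), 3 RPL11 pairs, the downstream pair of AT3G13580 (RPL7), RPL10B and the downstream pair of RPL3B. The last 2 turned sign without 1 library. So would RPL16B (AT4G18730, RPL11) without the second mutant replicate, since its first, at 1.63, lay below both wild-type values, 2.35 and 2.90. The higher RPL5 pair rests on the split described above. Among the genes of the list, copies of 1 family stood on opposite sides past 1.5-fold only in RPL4 and RPL11. In RPL4 this was at an upstream and a downstream peak. RPL13a copies outside the list, given below and named for their large differences, also stood on opposite sides past 1.5-fold. RPL5, RPL7, RPL7a, RPL8, RPL9, RPL10, RPL10a and RPL15 also had a pair of another copy on the opposite side. Those pairs were less than 1.5-fold apart between genotypes. The difference between copies was not tested.

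Where a gene had 2 listed peaks, the downstream one was nearly always the more enriched. In wild type 9 of these genes had exactly 2 peaks and in the mutant 8, and none had more. These counts include abutting peaks with no gap, in wild type in AT3G25520, AT5G39740 and AT1G18540, and in the mutant in AT5G39740. The downstream mean was higher in 8 of 9 wild-type genes and 7 of 8 mutant genes, where over all genes with exactly 2 peaks it was higher in 74.7% of 3508 and 67.2% of 3424. Both libraries had the downstream value higher in 8 of the 9 and 6 of the 8, against 50.7% and 39.98% of all such genes. The median excess on the log2 scale was 1.44 (wild type) and 1.38 (mutant), against 1.18 and 0.90 over all such genes. This pattern was chosen after the data were seen and was not tested.

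The exception in both genotypes was RPL3B (AT1G61580), whose upstream mean was 3.01 and downstream mean 2.11 in wild type, and 1.85 and 0.41 in the mutant. The other RPL3 gene, AT1G43170, had the usual order in wild type, with 1.04 and 1.12 at bases 141 to 240 and a mean of 3.10 downstream. Its upstream peak had no partner in the mutant list. The RPL7 gene AT2G44120 had the reverse case, an upstream peak in the mutant alone at bases 431 to 614, with 1.08 and 0.66. In AT2G01250, also RPL7, an upstream peak at bases 111 to 315 was listed in both genotypes, with 0.58 and 1.99 in wild type and 1.76 and 0.32 in the mutant.

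**Figure D4:**
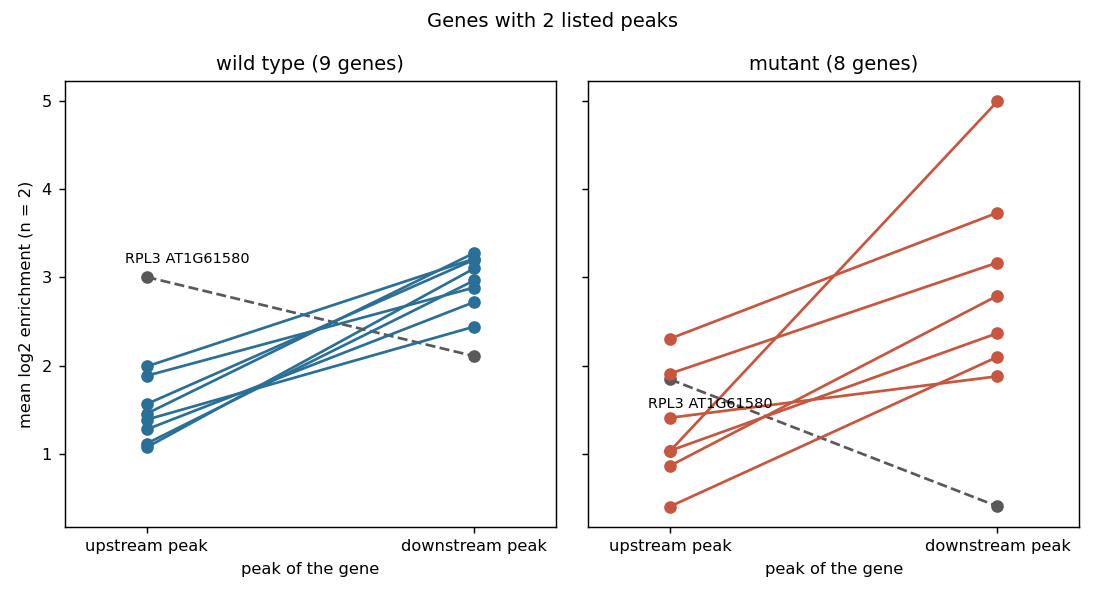
Mean log2 enrichment (vertical axis, n = 2) of the upstream and the downstream peak of each gene with 2 listed peaks, 9 genes in wild type and 8 in the mutant, 1 line per gene. Lines run upwards except that of RPL3B (AT1G61580, dashed grey), which runs downwards in both genotypes.

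The replicates of a genotype lay close together at these peaks. The median difference between replicates over the 43 pairs was 0.55 on the log2 scale in wild type and 0.53 in the mutant, against 1.26 and 1.60 over all 13876 pairs. In 26 of the 43 (60.5%, against 19.0% of all pairs) the replicates differed by less than 1 in both genotypes. Without RPL11 the medians were 0.54 and 0.51 over 39 pairs. Among the 10396 pairs of other genes with a mean enrichment in the range of these genes, from 0.90 to 4.13, the medians were 1.08 and 1.34. Read counts were not used, so the part of transcript amount in this closeness was not tested.

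The other genes of the cytosolic ribosome were also mostly listed in both genotypes, at lower enrichment. Of 87 further genes of the large subunit, 75 were listed, 72 of them in both genotypes (96.0%), and of 99 genes of the small subunit with its scaffold protein RACK1, 83 of 88 listed ones (94.3%). Their replicates differed by medians of 0.48 (wild type) and 0.68 (mutant) for the further 60S genes and 0.54 and 0.75 for the 40S genes. Median wild-type enrichment was 1.71 for the further 60S genes and 2.22 for the 40S genes, beside 2.81 here. All 4 libraries reached a log2 enrichment of 1 in 58.9% of the pairs of the further 60S genes and 75.9% of those of the 40S genes. The number of peaks also differed. In wild type 76.3% of the genes listed here had a single peak, against 60.2% of all genes. The shares were 97.3% for the further 60S genes and 96.5% for the 40S genes. For the mutant list the share was 78.9% here, against 57.5% of all genes. It was 90.4% for the further 60S genes and 95.3% for the 40S genes. None of these differences between gene groups was tested.

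**Figure D5:**
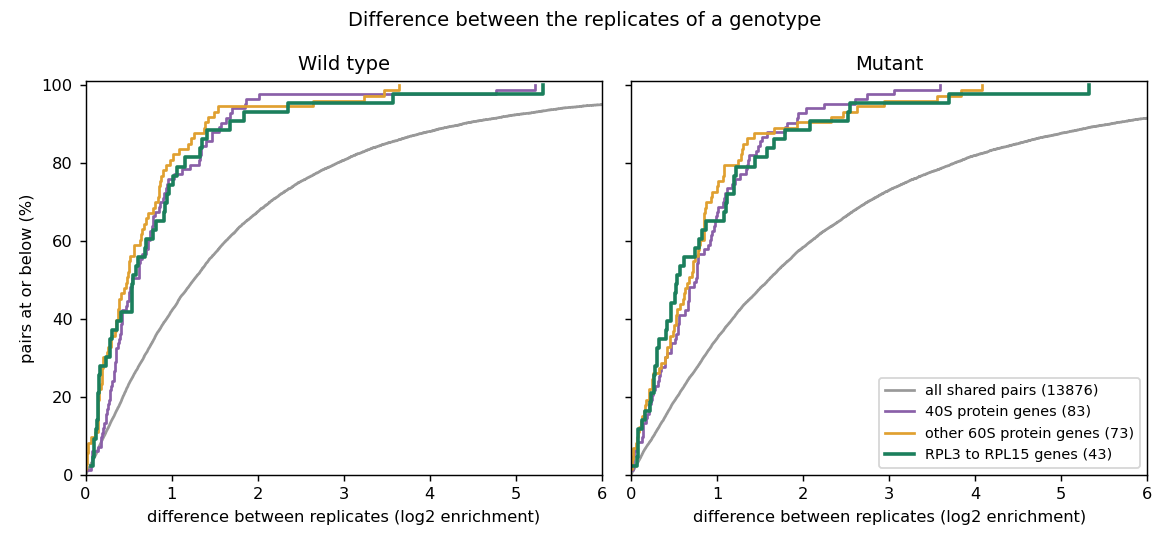
Cumulative share of shared pairs (vertical axis, percent) by the difference between the 2 replicates of a genotype (horizontal axis, log2 enrichment), in wild type and in the mutant, with the number of pairs in brackets. The curves of the 3 groups of ribosomal protein genes run close together and to the left of the curve of all pairs, with wild-type medians from 0.48 to 0.55 against 1.26.

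Between genotypes, 12 of 73 pairs of the further 60S genes (16.4%) were at least 1.5-fold higher in the mutant and 16 (21.9%) lower. Of the 83 pairs of the 40S genes 3 (3.61%) were higher and 22 (26.5%) lower, where the shares of all pairs were 32.4% and 32.1%. In either group 0 passed limma's test and 0 stood at an unadjusted p under 0.05. The largest differences without overlap lay in AT3G28900, an RPL34 gene, with 1.39 and 1.54 in wild type and 3.24 and 2.81 in the mutant, and in the opposite direction in AT5G48760, an RPL13a gene, with 2.73 and 3.96 against 2.34 and 1.49. A second RPL13a copy, AT3G24830, had 1.57 and 1.75 against 2.66 and 2.09. The RPS2 gene AT1G58380 had 2.19 and 2.999 against 1.46 and 1.12. These RPL13a copies lay on opposite sides, but the genes here were named for large differences in each direction, so their signs show no pattern of copies.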

How the data were processed

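The authors deposited a list of m6A peaks for each genotype, giving the gene and the borders and, per the file headers, the log2 enrichment in every replicate. TopHat2 2.0.14, edgeR and TAIR10 are named, without their roles, per the submitters' processing notes. How peaks were called, how enrichment was computed and how libraries were scaled is not given in the sources used here. A scaling could remove any genotype difference common to every peak. The headers name 3 replicates and the labels 2, so 2 columns of values were not used.

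The members and gene lists were chosen with earlier results of these data known. Peaks of the same gene that overlapped by at least 1 base counted as shared, and mutual largest overlaps were compared as pairs, on the deposited log2 values without a pseudocount. Genotypes were compared with limma 3.58.1 in R 4.3.3 over all pairs, without a block for replicate, at a Benjamini-Hochberg adjusted p of 0.05. Standard errors are limma's. Values are printed for genes listed in 1 genotype, pairs without overlap at least 1.5-fold apart, the 5 highest and 5 steadiest pairs, genes with 2 peaks and the top pair of each family; other pairs named beside them were chosen after their values were seen. Further 60S and 40S genes came from general knowledge, and up to 4 were named by size of difference. Alternatives were other overlaps, a minimum enrichment, only genes free of overlap with others, centring, a ratio of 2, robust and trended spread, gene means, merged peaks, a block for replicate, and each replicate left out in turn. No sequences are shown and the planned identity of copies was not computed, since no sequence was used here. Python 3.11.15, numpy 2.4.6, pandas 2.3.3, scipy 1.17.1 and matplotlib 3.10.9 were used.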

Additional observations from a re-analysis of the deposited data

How the results depend on the processing

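The 37 genes in both lists became 34 with a log2 enrichment of at least 1 in both replicates, and 27 of 31 among genes that overlap no other gene. With a ratio of 2 in place of 1.5, pairs higher in the mutant numbered 4 (from 8) and lower pairs 7 (from 13), by construction. Leaving out a replicate gave 8 to 12 higher and 13 to 15 lower pairs, and a median log2 difference from -0.25 to 0.24. It turned the sign at RPL10B (AT1G26910), whose log2 differences ranged from -4.99 to 0.33, and at the downstream peak of RPL3B (AT1G61580), with -4.36 to 0.97. At AT2G42740 (RPL11) they ranged from -4.99 to -1.42; where 1 library is left in a genotype, it is assumed to vary like the others. With peaks merged, a setting chosen after seeing the data, 7 pairs were higher and 12 lower. Under all settings limma called 0 of these pairs and 0 of all pairs; at an unadjusted p under 0.05 stood at most 1 of these pairs and 309 to 1215 of all. The planned change of pseudocount was not run, since the values are already log2. Single pairs were recomputed under scaling, spread, block and replicates left out only for the 14 without overlap at least 1.5-fold apart, RPL10B and downstream RPL3B. None of those 14 turned its sign, which lack of overlap fixes when a replicate is left out. The rest were not recomputed, and signs can turn there too. An example is RPL16B (AT4G18730), whose first mutant value, 1.63, lay below both wild-type values, 2.35 and 2.90. Same-numbered libraries did not deviate together peak by peak (Pearson's r 0.00678 and Spearman's rho 0.00792 across 13876 pairs, which are not independent). A shift common to a whole library drops out of such a correlation, so it cannot show whether the numbers pair libraries prepared together. With the replicate block the calls were 0 and the median -0.13. Depth is unknown and 2 libraries per genotype limit every comparison.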
